A study of Mus musculus with 16 samples.

Results

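The genes described here make or hold in check reactive oxygen and nitrogen species: Cybb, Cyba, Ncf1, Ncf4 and Rac2 of the phagocyte NADPH oxidase, Nos2, and the oxidative stress genes Hmox1, Nfe2l2 and Nqo1. They were chosen by symbol as a functional group, and all 9 were found among the 21878 mRNAs of the count and FPKM tables. The phagocyte NADPH oxidase (NOX2) is built at the membrane from a catalytic core, Cybb and Cyba, to which the cytosolic subunits and a Rac GTPase are recruited when a phagocyte is activated, and it then releases superoxide. Microglia carry this oxidase, inducible nitric oxide synthase (Nos2) makes nitric oxide in activated myeloid cells, and the transcription factor NRF2 (Nfe2l2) drives protective genes such as Hmox1 and Nqo1 when oxidants or haem accumulate.

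The libraries came from brains of wild-type female C57BL/6 mice aged 8 weeks, 8 with experimental autoimmune encephalomyelitis (EAE) and 8 injected with PBS. EAE is a model of immune demyelination, induced here with a myelin oligodendrocyte glycoprotein peptide starting at residue 35 in complete Freund's adjuvant, with 200 ng pertussis toxin on days 0, 2 and 7, and tissue was taken on day 14 at peak disease. The effects of peptide, adjuvant and toxin cannot be told apart in this design. Per the labels and the study's methods, total RNA was sequenced from cells sorted as CD11b+ with intermediate CD45. Each library held 24587443 to 34184576 counts. Within the PBS group libraries 5, 7 and 8, and within the EAE group libraries 6, 7 and 8, were more alike than any other pair. Their pairwise differences were 3.04 to 4.09 times the counting noise, against 5.80 to 25.4 for all other pairs within a group. Results are therefore also given within these 6 libraries (the set most alike) and within the other 10. Likeness was measured only between libraries of the same group, so whether the EAE and PBS libraries of the set resemble each other was not tested. The sample labels name no batch. Because the 6 were picked for small differences within their group, p-values within the set can be too small.

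The labelled cell type was checked against marker genes. All 17 microglial markers were detected in every library, with a mean of 12.4 to 21.8 FPKM per marker. The 8 neuronal markers averaged 105 to 137 FPKM, the 6 astrocyte markers 138 to 200 FPKM and the 6 oligodendrocyte markers 146 to 206 FPKM, so RNA of these cells was more abundant per marker than that of microglia. In such bulk samples, fewer cells of a type and less RNA per cell cannot be told apart. The 16 neutrophil markers differed between the groups. Their summed level was 54.2 to 104 FPKM in EAE and 23.3 to 59.7 FPKM in PBS, 16 of 16 were higher in EAE by the edgeR estimate (median log2 fold change 1.24) and 5 passed at an adjusted p under 0.05. None was at 0 in every library and 6 were at 0 in at least 1. Lcn2 had the highest mean of the 16, 31.0 FPKM in EAE and 24.1 FPKM in PBS. It did not pass (log2 fold change 0.31, SE 0.21, edgeR adjusted p = 0.478). S100a8 (19.9 and 7.64 FPKM) and S100a9 (15.5 and 5.90 FPKM) came next, and both passed. Cxcr2 averaged 0.244 FPKM in EAE and 0.142 FPKM in PBS. The sum thus mostly follows Lcn2, S100a8 and S100a9, and which cells their RNA came from was not tested. The 8 monocyte markers summed to 25.8 to 30.3 FPKM in EAE and 19.9 to 26.5 FPKM in PBS, with 7 of 8 higher and none called. Their sum mostly follows Fn1 (mean 15.6 FPKM in EAE and 14.05 FPKM in PBS) and Vcan (5.29 and 5.32 FPKM). Ccr2, Ly6c2 and Plac8 averaged 0.0904 to 0.473 FPKM in EAE and 0.0501 to 0.304 FPKM in PBS. Which cells the Fn1 and Vcan RNA came from was not tested. Of the 17 microglial markers 15 were higher and 1, Trem2, was called. Neutrophils, monocytes and microglia all use the NADPH oxidase, and the part of RNA from each of these cells in the results on its subunits was not tested.

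**Figure D1:**
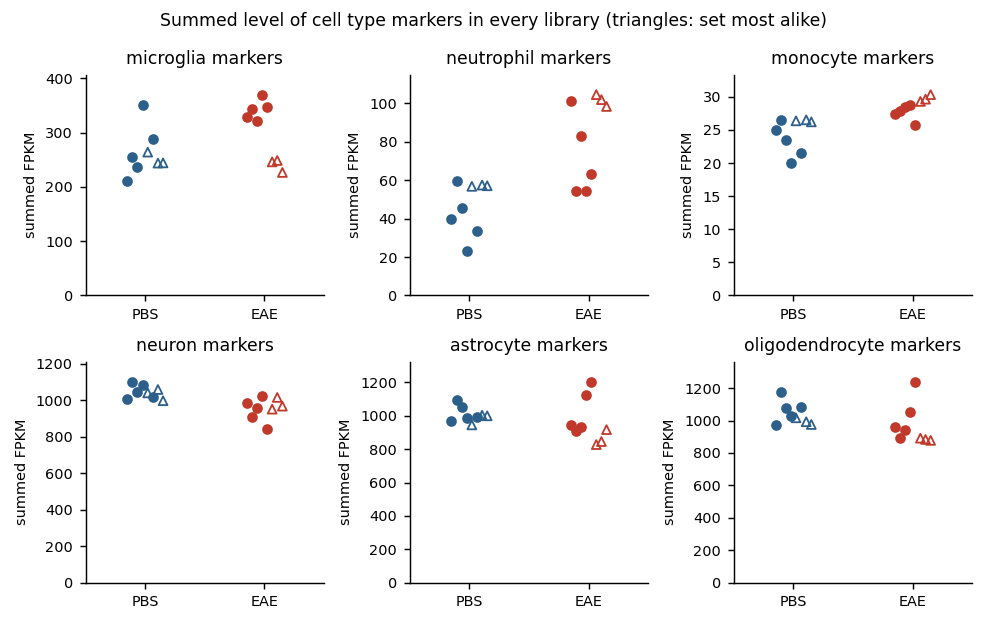
Summed FPKM of 6 lists of cell type markers in each library (y axis, linear from 0), for PBS and EAE, with triangles for the 3 libraries of each group in the set most alike. Neutrophil markers reached 104 FPKM in EAE and 59.7 FPKM in PBS, and the neuronal markers lay at 843 FPKM or above in every library.

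Of the 9 genes, 8 were higher in EAE than in PBS by the edgeR estimate, and 1, Hmox1, rose at an adjusted p under 0.05. Among all 17885 mRNAs tested, 2.42% passed that threshold, 0.66% as higher and 1.76% as lower. With library totals in place of TMM scaling this balance turned, from 118 higher and 315 lower to 226 higher and 103 lower. At an unadjusted p under 0.05, 5 of the 9 genes (Ncf1, Ncf4, Rac2, Nos2 and Hmox1) were higher and none lower, against 7.92% and 9.52% of all mRNAs. The median log2 fold change of the 9 was 0.26, and that of all mRNAs was 0.01. The study's own threshold for a differential mRNA, which adds a log2 fold change beyond 1 in either direction, was met by Hmox1 alone among the 9 and by 0.117% of all mRNAs.

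**Figure D2:**
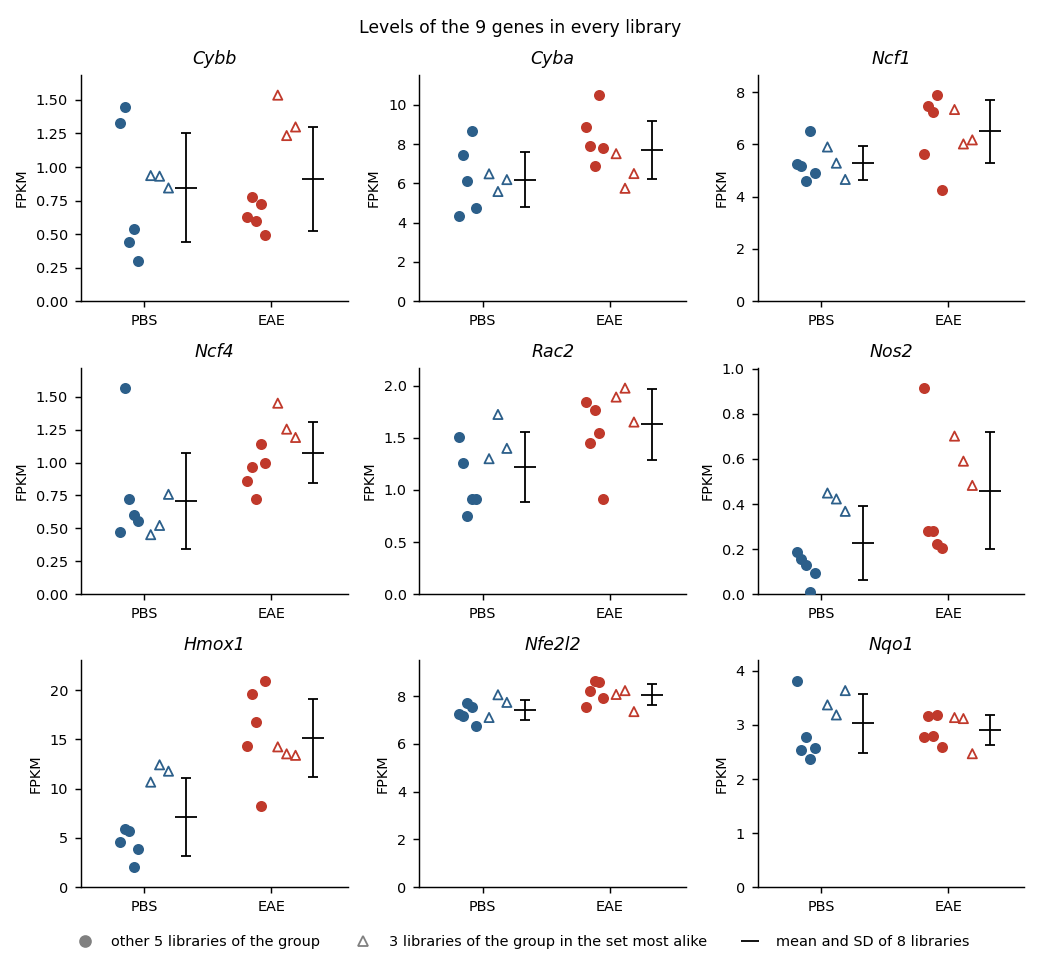
FPKM of each of the 9 genes (y axes, linear from 0) in the 8 PBS and 8 EAE libraries, with open triangles for the set most alike, filled circles for the others, and the mean and SD of 8 libraries in black. For Hmox1 the 3 PBS triangles sit at 10.7 to 12.4 FPKM and the 5 PBS circles at 2.05 to 5.94 FPKM.

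By FPKM, which corrects for gene length, Nfe2l2 had the highest mean level in PBS (7.42 ± 0.42, SD, n = 8), followed by Hmox1 (7.12 ± 3.94) and Cyba (6.20 ± 1.40). The order of these neighbours was not fixed, because Nfe2l2 lay above Hmox1 in 5 of 8 PBS libraries and Hmox1 above Cyba in 4 of 8. Ncf1 (5.28 ± 0.64 FPKM), Nqo1 (3.03 ± 0.54) and Rac2 (1.22 ± 0.33) came next, and Ncf1 exceeded Nqo1, and Nqo1 exceeded Rac2, in all 8 PBS libraries. Cybb (0.845 ± 0.407), Ncf4 (0.706 ± 0.365) and Nos2 (0.227 ± 0.164) were lowest, with Cybb above Ncf4 in 4 of 8. In EAE, Hmox1 was first at 15.1 ± 3.98 FPKM and exceeded Nfe2l2, second at 8.07 ± 0.46, in 7 of 8 libraries. The catalytic subunit was therefore measured at a lower level than its partner Cyba in both groups.

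Cybb encodes the catalytic, electron-carrying subunit of NOX2 (chromosome X, 9435252 to 9487771, minus strand, GRCm38). Its FPKM in PBS ran from 0.299 in PBS 6 through a median of 0.888 to 1.44 in PBS 2, and in EAE from 0.496 in EAE 5 through 0.747 to 1.54 in EAE 6. The groups overlapped almost fully, with only EAE 6 above the highest PBS library. Over all 16 libraries the log2 fold change was 0.06 (SE 0.29; edgeR adjusted p = 0.946), from 40 to 229 counts per library. Within the set most alike, EAE 6, 7 and 8 held 1.23 to 1.54 FPKM and the PBS libraries 0.844 to 0.936, without overlap, and the log2 fold change was 0.55 (SE 0.15; edgeR adjusted p = 0.00905). In the other 10 libraries the estimate had the opposite sign, -0.41 (SE 0.36; edgeR adjusted p = 0.777), and PBS 1 and PBS 2, at 1.33 and 1.44 FPKM, lay above every EAE library there. The interaction of condition and set was 0.96 (SE 0.50; edgeR adjusted p = 0.650). Neutrophil markers summed to 98.3 to 104 FPKM in EAE 6, 7 and 8 and to 56.8 to 57.4 FPKM in PBS 5, 7 and 8. In the other libraries they ran from 54.2 to 101 FPKM in EAE and from 23.3 to 59.7 FPKM in PBS. EAE 1, at 101 FPKM of these markers, held 0.629 FPKM of Cybb, and PBS 1, at 39.6 FPKM, held 1.33 FPKM. PBS 2, with the most of these markers in PBS, also held the most Cybb of that group. Microglial markers summed to 227 to 249 FPKM in EAE 6, 7 and 8 and to 322 to 370 FPKM in the other EAE libraries. In PBS they summed to 244 to 264 FPKM in the set most alike and to 211 to 350 FPKM in the other libraries. The part of neutrophil or microglial RNA in the Cybb values was not tested.

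Cyba, the smaller membrane subunit that stabilises Cybb (chromosome 8, 122424776 to 122432930, minus strand), had 4.35 to 8.67 FPKM in PBS (median 6.15) and 5.75 to 10.5 FPKM in EAE (median 7.66). PBS 4 and EAE 4 were the highest library of their group, and 7 of 8 EAE libraries lay above the PBS median. The difference was a log2 fold change of 0.26 (SE 0.15; edgeR adjusted p = 0.371), and it did not pass. In the set most alike it was 0.08 (SE 0.16), and in the other libraries 0.35 (SE 0.20). The annotation places a second gene, Gm20388, over Cyba on the opposite strand, and whether counting used strand is not given in the sources used here.

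The cytosolic organisers gave small positive estimates that did not pass. Ncf1, the organiser that brings the cytosolic complex to the membrane (chromosome 5, 134220053 to 134229625, minus strand), had 4.59 to 6.50 FPKM in PBS (median 5.20) and 4.25 to 7.88 FPKM in EAE (median 6.71). The groups overlapped: 4 EAE libraries exceeded every PBS library, while EAE 5 was the lowest of all 16. For Ncf1 the log2 fold change was 0.25 (SE 0.11; edgeR adjusted p = 0.233), and it was 0.27 in the set most alike and 0.23 in the others. Leaving out EAE 5 gave 0.32 with an edgeR adjusted p of 0.0416. This was the only 1 of the 16 fits without 1 library that passed, and the other 15 had edgeR adjusted p-values up to 0.360. Gtf2ird2 overlaps Ncf1 on the opposite strand, and the same limit on strand applies.

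Ncf4, a phosphoinositide-binding cytosolic subunit (chromosome 15, 78244801 to 78262580, plus strand), had 0.452 to 1.57 FPKM in PBS (median 0.576) and 0.726 to 1.45 FPKM in EAE (median 1.07). One PBS library stood apart: PBS 2 at 1.57 FPKM was higher than all EAE libraries, and the next PBS library was at 0.759 FPKM. Every EAE library was above the PBS median. For Ncf4 the log2 fold change was 0.54 (SE 0.25; edgeR adjusted p = 0.264), from 20 to 84 counts per library, and it was 0.83 without PBS 2 (edgeR adjusted p = 0.0563). In the set most alike the EAE libraries held 1.19 to 1.45 FPKM and the PBS libraries 0.452 to 0.759, and the log2 fold change of 1.14 (SE 0.32) passed (edgeR adjusted p = 0.0112). In the other 10 libraries it was 0.17 (SE 0.34; edgeR adjusted p = 0.925), and the interaction with the set was 0.96 (SE 0.50; edgeR adjusted p = 0.649).

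Rac2, the haematopoietic Rac GTPase of the active complex (chromosome 15, 78559167 to 78572783, minus strand), had 0.751 to 1.72 FPKM in PBS (median 1.28) and 0.915 to 1.98 FPKM in EAE (median 1.71). Of the EAE libraries 4 lay above every PBS library, and EAE 5, the lowest of its group, lay between the low PBS libraries 6 and 4. The log2 fold change was 0.36 (SE 0.17; edgeR adjusted p = 0.280). It kept its sign in the set most alike (0.29, SE 0.16) and in the other libraries (0.42, SE 0.23), where neither passed.

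Nos2, the inducible nitric oxide synthase (chromosome 11, 78920787 to 78960254, plus strand), was the scarcest of the 9, with 1 to 66 counts in the PBS libraries and 26 to 109 in the EAE libraries. Its FPKM was 0.00773 in PBS 4, had a median of 0.171 and reached 0.449 in PBS 5, and in EAE it ran from 0.206 in EAE 5 through 0.382 to 0.915 in EAE 1. Every EAE library was above the PBS median, and 5 PBS libraries were below all EAE libraries, those 5 being the PBS libraries outside the set most alike. The log2 fold change was 0.95 (SE 0.44; edgeR adjusted p = 0.263). The groups did not overlap within either set: 0.368 to 0.449 against 0.483 to 0.702 FPKM in the set most alike, and 0.00773 to 0.188 against 0.206 to 0.915 FPKM in the other libraries. In these sets the log2 fold changes were 0.49 (SE 0.25; edgeR adjusted p = 0.172) and 1.64 (SE 0.55; edgeR adjusted p = 0.270), and the interaction did not pass (-1.17, SE 0.71; edgeR adjusted p = 0.706). With a term for the set, the log2 fold change of all 16 libraries was 1.15 (SE 0.37; edgeR adjusted p = 0.0768).

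Hmox1, the inducible haem oxygenase that degrades haem to biliverdin, iron and carbon monoxide (chromosome 8, 75093621 to 75100589, plus strand), rose in EAE. In PBS it ran from 2.05 FPKM in PBS 4 through a median of 5.79 to 12.4 in PBS 7, and in EAE from 8.26 in EAE 4 through 14.3 to 20.9 in EAE 5. All PBS libraries but 3 lay below every EAE library, and EAE 4 was the only EAE library that reached into the PBS range. The log2 fold change was 1.03 (SE 0.27; edgeR adjusted p = 0.0436), a 2.04-fold difference, from 93 to 997 counts per library. The call was close to the threshold: with 1 library left out at a time it was lost in 10 of 16 cases, at edgeR adjusted p-values up to 0.0921, although the log2 fold change in those 16 cases stayed between 0.89 and 1.19. It was also lost with robust estimation of the dispersion (edgeR adjusted p = 0.107), and it was kept with DESeq2 (adjusted p = 0.0323). Leaving out EAE 4 or PBS 7 kept it, and leaving out EAE 1, 2, 3, 6, 7 or 8 or PBS 1, 2, 3 or 6 did not.

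The estimated Hmox1 difference had another size in each set of libraries, although the interaction given below did not pass. In the set most alike the PBS libraries held 10.7 to 12.4 FPKM and the EAE libraries 13.4 to 14.2 FPKM, a log2 fold change of 0.21 (SE 0.08; edgeR adjusted p = 0.0623). In the other 10 libraries PBS held 2.05 to 5.94 FPKM and EAE 8.26 to 20.9 FPKM, a log2 fold change of 1.78 (SE 0.26; edgeR adjusted p = 0.0221), or 3.44-fold. The PBS libraries thus differed by set (mean 11.6 ± 0.89 FPKM, SD, n = 3, against 4.42 ± 1.56, n = 5), while the EAE libraries of one set lay inside the range of the other. The interaction was -1.58 (SE 0.35; edgeR adjusted p = 0.102), which misses the threshold over all mRNAs. With a term for the set the log2 fold change was 1.17 (SE 0.24; edgeR adjusted p = 0.0102). Neutrophil markers summed to 56.8 to 57.4 FPKM in PBS 5, 7 and 8 and to 23.3 to 59.7 FPKM in the other PBS libraries. Haemoglobin and other erythroid markers were not higher in EAE (1 of 5 higher, none called, summed level 120 to 885 FPKM in EAE and 180 to 544 FPKM in PBS), and the library with the most of them in EAE, EAE 5, was also the one with the most Hmox1, while EAE 4, second in EAE for these markers at 349 FPKM, had the least. The part of either cell type in the Hmox1 values was not tested.

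Nfe2l2, which encodes NRF2 (chromosome 2, 75675513 to 75704641, minus strand), had the smallest SD relative to its mean in both groups. It had 6.77 to 8.06 FPKM in PBS (median 7.39) and 7.35 to 8.63 FPKM in EAE (median 8.14), and 5 EAE libraries exceeded every PBS library. After TMM scaling the log2 fold change was 0.07 (SE 0.06; edgeR adjusted p = 0.572), and it was 0.12 with library totals alone (edgeR adjusted p = 0.258). Nqo1, a quinone reductase and a standard NRF2 target (chromosome 8, 107388225 to 107403206, minus strand), was the member with a lower estimate. It had 2.38 to 3.81 FPKM in PBS (median 2.98) and 2.47 to 3.18 FPKM in EAE (median 2.96), the EAE libraries lay inside the PBS range, and the log2 fold change was -0.11 (SE 0.12; edgeR adjusted p = 0.676). In the set most alike all 3 EAE libraries, at 2.47 to 3.14 FPKM, were below the 3 PBS libraries, at 3.19 to 3.64 FPKM, with a log2 fold change of -0.25 (SE 0.16; edgeR adjusted p = 0.278).

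**Figure D3:**
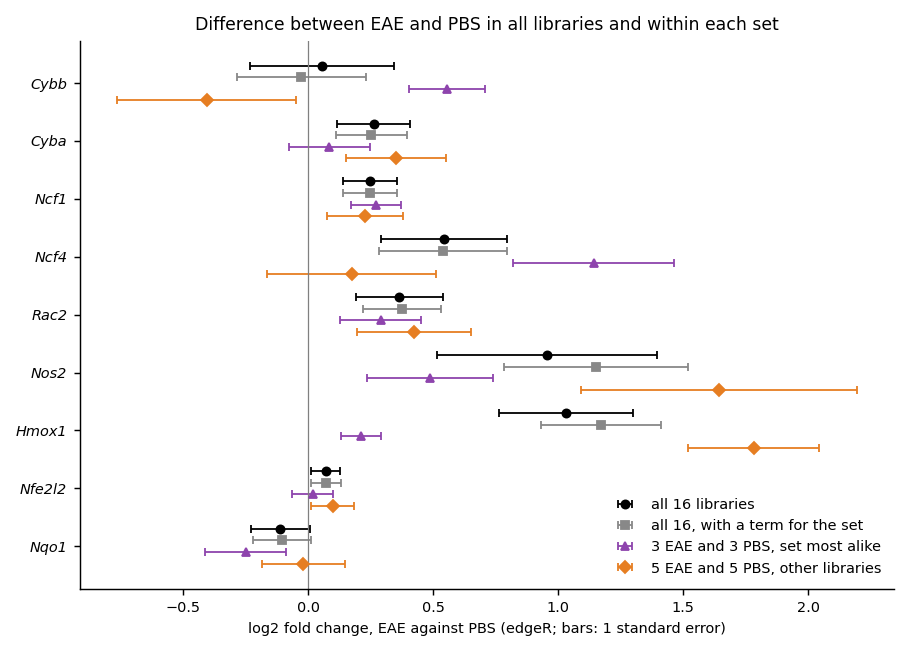
Log2 fold change of EAE against PBS (x axis, edgeR, bars of 1 standard error) for the 9 genes (y axis), in all 16 libraries, with a term for the set, and within each set. Hmox1 lies at 0.21 in the set most alike and at 1.78 in the other libraries, and Cybb at 0.55 and -0.41.

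Across the group, EAE and PBS libraries did not overlap for 0 of the 9 genes over all 16 libraries (0.263% of all mRNAs), for 2 of 9, Nos2 and Hmox1, in the other 10 libraries (2.04%), and for 6 of 9 in the set most alike (37.0%). Calls at an adjusted p under 0.05 were 1 of 9 with a term for the set (4.29% of all mRNAs), 2 of 9 in the set most alike (24.1%) and 1 of 9 in the other libraries (0.0745%). The shares of the set most alike were thus high for mRNAs in general, and its 2 calls, Cybb and Ncf4, were near that background. On FPKM within this set the exact permutation p was 0.1 for both genes, the smallest that 3 against 3 libraries can give. The interaction passed for 0 of 9 (0.0615% of all mRNAs) by edgeR, the one tool run on it, and 1 of 9, Hmox1, had an unadjusted p under 0.05 (8.03% of all mRNAs). On FPKM, an exact two-sided permutation test over the 12870 divisions of the libraries gave p under 0.05 for 6 of 9 genes, against 18.4% of all mRNAs in either direction, and the 6 were higher in EAE. The smallest was that of Hmox1 (mean difference 8.01 FPKM, exact permutation p = 0.00218, adjusted over all mRNAs 0.0911), followed by Nfe2l2 (0.65 FPKM, exact permutation p = 0.0118, adjusted 0.155), and none passed after adjustment. FPKM is scaled to library totals, without the TMM factor of the count test.

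The other parts of the NOX2 machinery were examined by lists. Of 9 further NOX2 partners 8 were found by symbol and tested, 5 were higher, 3 lower, and 1 passed: Vav1, the exchange factor that activates Rac. Among all mRNAs, 0.66% passed as higher. Vav1 had 1.74 to 2.72 FPKM in PBS (median 2.07) and 2.39 to 3.21 FPKM in EAE (median 2.96), and 7 of 8 EAE libraries exceeded every PBS library. Its log2 fold change was 0.42 (SE 0.10; edgeR adjusted p = 0.0255), and the call was lost in 3 of the 16 fits that left out 1 library and in the other 10 libraries alone (0.49, edgeR adjusted p = 0.142). Next by p were Hvcn1, the voltage-gated proton channel that balances the charge of the oxidase (log2 fold change 0.36, SE 0.14, edgeR adjusted p = 0.198), and Rac1, the ubiquitous Rac (-0.11, SE 0.05, edgeR adjusted p = 0.210). The median of the list was 0.03.

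Of 9 genes of other NADPH oxidases and dual oxidases, 8 had enough counts, 7 were higher and none passed (median log2 fold change 0.52). Duox1, with 33 to 150 counts, gave 0.54 (SE 0.24, edgeR adjusted p = 0.233), Nox3, with 1 to 29 counts, gave 1.12 (SE 0.55, edgeR adjusted p = 0.303), and Duox2, with 2 to 26 counts, gave 0.76 (SE 0.42, edgeR adjusted p = 0.360). Of 14 genes of nitric oxide and arginine metabolism 7 were higher and 7 lower, and none passed. The nearest were Arg1, the arginase that competes with Nos2 for arginine (0.188 to 1.39 FPKM in PBS, 0.908 to 2.73 FPKM in EAE, log2 fold change 1.18, SE 0.34, edgeR adjusted p = 0.0641), and Nos1, the neuronal synthase (-0.29, SE 0.09, edgeR adjusted p = 0.0689). Ddah1, which clears methylated arginines that inhibit the synthases, gave -0.23 (SE 0.08, edgeR adjusted p = 0.133).

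No gene of the haem, iron and NRF2 lists around Hmox1 and Nfe2l2 passed. Of 10 genes of haem and iron handling 2 were higher and 8 lower, with a median log2 fold change of -0.11 and no call. Lrp1, an endocytic receptor that takes up haem bound to haemopexin, had -0.13 (SE 0.04, edgeR adjusted p = 0.0583), Hmox2, the constitutive haem oxygenase, -0.14 (SE 0.06, edgeR adjusted p = 0.201), and Blvra, which reduces biliverdin, -0.22 (SE 0.10, edgeR adjusted p = 0.266). Of 11 NRF2 regulators and partners 6 were higher, 5 lower and none called. Sqstm1, the adaptor that sequesters KEAP1, was nearest at -0.22 (SE 0.07, edgeR adjusted p = 0.104), before Nfe2l1 (-0.10, SE 0.04, edgeR adjusted p = 0.247) and Nfe2l3 (0.21, SE 0.10, edgeR adjusted p = 0.268), transcription factors related to NRF2.

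Of 20 further NRF2 targets 9 were higher and 11 lower, none passed, and the median was -0.01. The glutathione transferases Gstm1 (-0.21, SE 0.07, edgeR adjusted p = 0.124) and Gstp1 (-0.14, SE 0.05, edgeR adjusted p = 0.130) came nearest, with Taldo1 of the pentose phosphate pathway (-0.19, SE 0.08, edgeR adjusted p = 0.201). Of 25 other antioxidant enzymes 5 were higher and 20 lower, with a median of -0.08. Against 1.76% of all mRNAs that passed as lower, 1 of the 25 did. This was Cat, the peroxisomal catalase that breaks down hydrogen peroxide, with 12.8 to 15.0 FPKM in PBS (median 14.4) and 11.4 to 14.7 FPKM in EAE (median 12.2), where 6 EAE libraries lay below every PBS library. Its log2 fold change was -0.24 (SE 0.06; edgeR adjusted p = 0.0373), and 12 of the 16 fits that left out 1 library lost the call. It was also lost with library totals alone (-0.19, edgeR adjusted p = 0.101) and in the other 10 libraries alone (-0.22, edgeR adjusted p = 0.320). With limma on log2(FPKM + 0.1) and log2(FPKM + 1) it was lost as well (limma adjusted p = 0.0875 and 0.0830). Prdx2, a cytosolic peroxiredoxin, had -0.18 (SE 0.07, edgeR adjusted p = 0.177), and Txn2, the mitochondrial thioredoxin, -0.16 (SE 0.07, edgeR adjusted p = 0.250). Neuronal markers, of which 7 of 8 were lower and 2 passed, with summed levels of 843 to 1024 FPKM in EAE and 996 to 1099 FPKM in PBS, had estimates in the same direction as these enzymes. So did 5 of 6 astrocyte markers (827 to 1202 FPKM in EAE and 945 to 1095 in PBS), none of which passed. The other astrocyte marker, Gfap, was higher and passed (log2 fold change 0.50, SE 0.12, edgeR adjusted p = 0.0312). Of the oligodendrocyte markers 5 of 6 were lower (878 to 1238 FPKM in EAE and 973 to 1175 in PBS), and none passed. The part of RNA from neurons, astrocytes and oligodendrocytes was not tested.

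**Figure D4:**
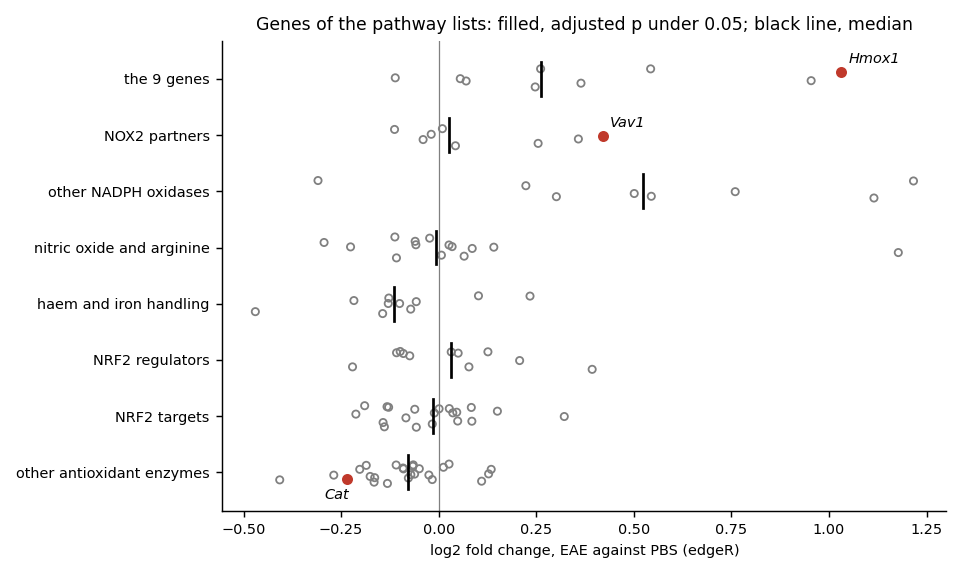
Log2 fold change of EAE against PBS (x axis, edgeR) for each tested gene of the 9 and of 7 pathway lists (y axis), with filled points for an adjusted p under 0.05 and a black line at each list's median. Hmox1 (1.03), Vav1 (0.42) and Cat (-0.24) are the filled points.

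How the 9 genes varied together among mice of the same group was examined in 36 pairs, after subtracting group means from log2(CPM + 0.5). The median Pearson's r was 0.18, 24 pairs were positive, 4 had a permutation p under 0.05, and none passed after Benjamini-Hochberg adjustment over the 36 pairs, by r or by Spearman's rho. The largest were Cybb with Rac2 (r = 0.71, rho = 0.67, permutation p = 0.0029, adjusted 0.0522) and Rac2 with Nos2 (r = 0.71, rho = 0.74, permutation p = 0.00269, adjusted 0.0522). Without the 2 libraries farthest from the median of the first gene these were 0.73 and 0.77. In the other 10 libraries they were 0.69 and 0.55, and in the 6 of the set most alike 0.11 and 0.34. Nos2 and Hmox1 gave r = 0.64 (rho = 0.49, permutation p = 0.0119, adjusted 0.143), and 0.38 in the other 10 libraries. Cybb and its partner Cyba gave r = -0.14 (rho = -0.17, permutation p = 0.637, adjusted 0.791).

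**Figure D5:**
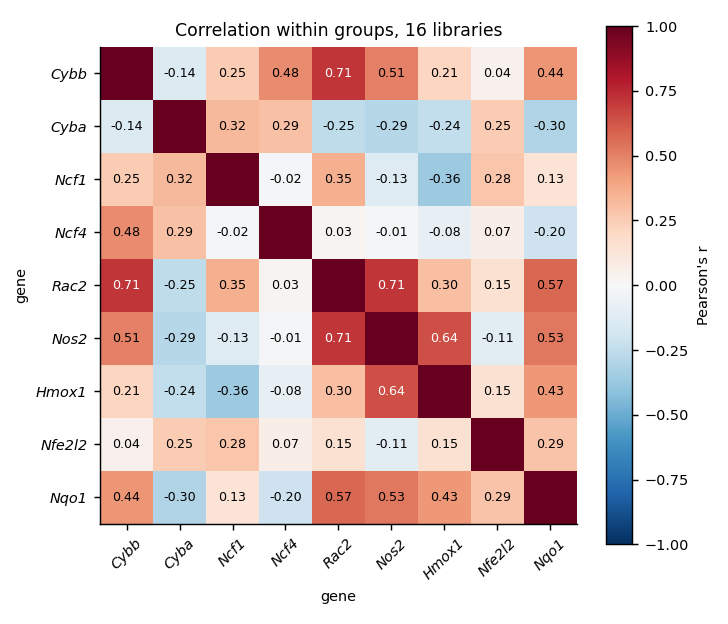
Pearson's r between each pair of the 9 genes (both axes) over 16 libraries after group means were subtracted from log2(CPM + 0.5), with colour from -1 to 1. Rac2 has the highest values, 0.71 with both Cybb and Nos2, and Cyba is at or below 0.32 with every other gene.

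Among 14759 mRNAs with a mean of at least 1 CPM, those most like Cybb across the 16 libraries, with group means subtracted, were Retnlg (r = 0.92), Dnm1 (0.90), Gsr (0.89), Gas2l1 (0.89) and Orai2 (0.89). Retnlg is one of the neutrophil markers, Gsr is the glutathione reductase, and Dnm1 is a dynamin of nerve terminals at 145 to 214 FPKM. Those most like Hmox1 were Tbx3 (r = 0.93), Irx3 (0.92), Sh3pxd2b (0.91), Bhlhe41 (0.91) and Gspt1 (0.90). These are the highest of many correlations over 16 libraries that share depth and set. In the other 10 libraries the 5 of Cybb gave 0.84 to 0.95 and the 5 of Hmox1 0.85 to 0.91. These 10 are among the 16 libraries by which the genes were picked, so the values are no separate check.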

How the data were processed

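Per the labels and the study's methods, the authors sorted cells from mouse brain, sequenced ribosome-depleted total RNA in pairs, demultiplexed with bcl2fastq, aligned to GRCm38 with HISAT2 2.1.0 and counted with HTSeq 0.11.2. The authors deposited whole-number counts and FPKM for 21878 mRNAs in 16 libraries. The deposited FPKM were the counts divided by the library's total and a fixed length per gene. The labels number the last residue of the peptide upward from 55 to 62 over EAE 1 to 8, whereas the methods give residues 35 to 55 for all EAE mice. The 8 were treated as 1 group.

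Groups came from the labels, with 8 libraries each, and each library was taken as 1 mouse. mRNAs with at least 16 counts in total (17885) were tested with edgeR 4.0.16 (TMM, quasi-likelihood F test, R 4.3.3) and Benjamini-Hochberg adjustment over all of them, as genome-wide differential expression, at an adjusted p under 0.05. Standard errors were taken from the log2 fold change and F. The edgeR fit with and without a replicate block, DESeq2 and limma on log2(FPKM + 0.1) were run on simulated counts with the same dispersion for every gene. The fits within a set, with a term for the set and with the interaction were not run on simulated counts. Alternatives used DESeq2 1.42.0, limma 3.58.1 on log2(FPKM + 0.1) and log2(FPKM + 1), RLE factors, library totals, other filters and each library left out. FPKM were compared by exact permutation of the libraries (smallest p 0.000155), and pairs of genes with 100000 permutations within groups. Positions are from GENCODE for GRCm38.

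The 9 genes, the pathway and marker lists and the set most alike were chosen with earlier results of these data known. Named were all 9 genes, every pathway gene with an adjusted p under 0.05 and up to 3 of each list with the smallest p, and the 5 mRNAs most like Cybb and Hmox1. The listed symbols Cybc1 and Trac were not matched and are not analysed here. A further gene named by the rule is not reported here.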

Additional observations from a re-analysis of the deposited data

Results flagged for a closer look

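One of 18 groups of 8 libraries examined for these 9 genes held a library far from the rest, close to the about 1 in 20 that chance gives. Ncf4 was at 1.57 FPKM in PBS 2, and its gap to the next PBS library was 0.725 of the whole PBS range, above Dixon's critical value for 8 libraries. The same library had the highest Cybb of the PBS group (1.44 FPKM), and its neutrophil markers summed to 59.7 FPKM, the most among the PBS libraries. PBS 1, next in Cybb at 1.33 FPKM, had neutrophil markers that summed to 39.6 FPKM. Whether these values are linked was not tested.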

How the results depend on the processing

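All values are for EAE against PBS at an adjusted p under 0.05. Of the 9 genes, 1 passed, 0 did with robust estimation, 2 in the set most alike and 0 to 2 without 1 library. Of the pathway genes, 2 passed, and 1 with library totals, 5 with DESeq2, 1 with limma on log2(FPKM + 0.1), 6 with a term for the set, 32 in the set most alike, 0 in the other libraries and 0 to 9 without 1 library. The pathway lists held 8, 8, 14, 10, 11, 20 and 25 tested genes. The share of all mRNAs that passed was 2.42%, and 4.29% with a term for the set, 24.1% in the set most alike and 0.0745% in the other libraries. Of all mRNAs, 118 were higher, and 226 with library totals, 299 with DESeq2, 242 with a term for the set, 1896 in the set most alike, 8 in the other libraries and 39 to 502 without 1 library. 315 were lower, and 103 with library totals, 611 with DESeq2, 73 and 80 with limma on log2(FPKM + 0.1) and log2(FPKM + 1), 526 with a term for the set, 2251 in the set most alike, 5 in the other libraries and 104 to 815 without 1 library. The log2 fold change of Cybb changed sign with a term for the set (-0.027), in the other libraries (-0.41) and without EAE 6, 7 or 8 or PBS 3, 4 or 6 (-0.094 to 0.22 over the 16 fits). The other 8 genes kept their direction in all 28 alternatives run for each. In the exact permutation test on FPKM 6 genes had p under 0.05, and 2 to 6 without 1 library (2 without EAE 6, 3 without PBS 6). Pairs passing numbered 0, and 0 to 2 without 1 library (2 without EAE 3, 1 without PBS 3). Leaving out the 2 libraries farthest from the median was run on r alone, with no count of pairs. The cause of these changes was not tested. The fits that left libraries out also rest on fewer libraries, and the part of that was not tested either.

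The replicate numbers were not taken to pair the mice: deviations of same-numbered libraries correlated at -0.26 to 0.61, and 3 of 8 were above 0.1. With the replicate block, 1 of the 9 genes passed and Hmox1 gave 1.18 (edgeR adjusted p = 0.00799).

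Nos2 and Ncf4 rest on few counts, down to 1 and 20 per library.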
